A study of Rattus norvegicus with 10 samples.

Results

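The mRNA expression of 6 genes of the circadian clock was compared in the prefrontal cortex (PFC) of 10 rats. The genes were the period genes Per1 (ENSRNOG00000007387) and Per2 (ENSRNOG00000020254), the output gene Dbp (ENSRNOG00000021027), the activator genes Arntl (ENSRNOG00000014448) and Clock (ENSRNOG00000002175), and Nr1d1 (ENSRNOG00000009329). They were taken by Ensembl identifier from the 30560 genes of the count table. All 6 passed the filter on low counts, as did 16137 genes in total. The table gives identifiers alone, so the pairing of the 6 names with their identifiers was taken as given and was not tested on the data.

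The control group held 5 male, wild-type SD (Sprague-Dawley) rats that received intraperitoneal saline for 2 weeks, and the MK-801 group held 5 male, wild-type SD rats that received intraperitoneal MK-801 at 0.2 mg/kg for 2 weeks. MK-801 is a non-competitive antagonist of the NMDA receptor, and its repeated administration serves as a pharmacological model relevant to schizophrenia, with no genetic change in the animals. Per the methods, the rats were bought as juveniles, and the injections of this regimen were given in the morning of a fixed light cycle. The time of day at which the PFC of each sequenced rat was taken is not given in the sources used here. Neither is the time between the last injection and the taking of the tissue, nor a sequencing batch. Each rat gave 1 RNA-seq library of bulk tissue, with 24334589 to 30824539 counts per library, so that fewer cells of a type and less RNA per cell cannot be told apart. Markers of the tissue and of its cell types are not analysed here, since they could not be paired with identifiers. The share of each library taken by its 10 most abundant genes ranged from 6.005% to 10.9% in control rats and from 5.86% to 7.05% in MK-801 rats.

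The mammalian clock is a feedback loop of transcription. CLOCK and ARNTL (also named BMAL1) bind E-box sequences and switch on the Per and Cry genes, whose proteins return to the nucleus and repress CLOCK and ARNTL. E-boxes also drive Nr1d1 and Dbp. NR1D1 (REV-ERB alpha) represses Arntl through ROR elements, and DBP activates genes that carry D-boxes, Per genes among them. In a rodent brain kept on a light cycle, the Arntl transcript runs roughly opposite to those of Per and Dbp over the day, whereas Clock varies little. The Per genes, Per1 in particular, also respond to neuronal activity and glucocorticoids.

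The sequence before the transcription start is shown for the members in which a search found a clock motif, to show which elements of the loop they hold. RefSeq of the GRCr8 assembly gave a window for all 6 members (8 windows in total, Arntl listed as Bmal1), and the 250 bases before the start were searched on both strands. The motifs were the E-box CACGTG, the E'-box CACGTT, the D-box TTANGTAA and the ROR element AGTAGGTNA, none of which overlapped another in these windows. In the sequences, written 5′ to 3′ on the strand of the gene, capitals mark the matches.
Per2, chr9:99496994-99497243, minus strand: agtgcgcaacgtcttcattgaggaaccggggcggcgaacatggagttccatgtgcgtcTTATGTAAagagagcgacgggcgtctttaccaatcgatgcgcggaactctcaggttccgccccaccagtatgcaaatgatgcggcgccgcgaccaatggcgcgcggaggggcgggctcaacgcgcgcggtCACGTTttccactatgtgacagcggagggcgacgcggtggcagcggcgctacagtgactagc
Arntl, chr1:176766078-176766327, plus strand: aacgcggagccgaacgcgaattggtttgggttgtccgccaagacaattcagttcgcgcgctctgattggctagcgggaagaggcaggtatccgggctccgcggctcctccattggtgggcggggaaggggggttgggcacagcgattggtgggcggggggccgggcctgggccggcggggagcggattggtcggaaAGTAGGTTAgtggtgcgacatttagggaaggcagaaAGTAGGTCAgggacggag
Nr1d1, upstream start, chr10:84231813-84232062, minus strand: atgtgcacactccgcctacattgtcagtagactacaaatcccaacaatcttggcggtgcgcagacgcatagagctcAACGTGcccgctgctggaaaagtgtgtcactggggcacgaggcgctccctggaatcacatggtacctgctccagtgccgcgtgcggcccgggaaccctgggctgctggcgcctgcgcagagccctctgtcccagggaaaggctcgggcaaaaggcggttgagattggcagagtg
Nr1d1, downstream start, chr10:84229455-84229704, minus strand: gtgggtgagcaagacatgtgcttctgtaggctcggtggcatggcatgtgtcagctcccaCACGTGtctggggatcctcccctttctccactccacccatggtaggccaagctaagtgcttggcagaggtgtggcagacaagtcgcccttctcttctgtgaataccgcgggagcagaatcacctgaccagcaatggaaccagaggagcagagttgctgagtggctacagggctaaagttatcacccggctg

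The Per2 window held an E'-box that began 62 bases before the start and a D-box that began 192 bases before it. The Arntl window held a pair of ROR elements, which began 54 and 18 bases before the start, and no E-box. Nr1d1 held an E'-box on the opposite strand at its upstream start (174 bases before it) and an E-box at its downstream start (191 bases before it). Of all 33469 windows in the RefSeq table, 5.59% held the E-box, 4.07% the E'-box, 2.04% the D-box and 0.511% the ROR element. No match was found in the windows of Per1, Dbp and Clock, which says only that these letters are not within these 250 bases. The Per1 window lies inside the span of the gene in the same RefSeq assembly, so that it precedes an internal start, and the outermost start of Per1 was not searched. These matches are a description of sequence and not of binding.

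None of the 6 clock genes passed an adjusted p-value of 0.05 in edgeR's quasi-likelihood test, with p-values adjusted by the Benjamini-Hochberg method over all genes tested. In edgeR the whole table behaved alike, with 0 of 16137 genes (0%) called at this level and 2235 at an unadjusted p-value under 0.05. DESeq2 called 106 genes when run on the 23914 genes with a count and 117 when run on the same 16137 genes, of which none was a clock gene. The adjusted p-values of DESeq2 cover only the genes left by its own filter on mean count. Fold changes are given as MK-801 over control. The largest differences among the 6 were in Per1, which was 1.30-fold higher in the MK-801 group, and in Dbp, which was at 0.833 of its control level. Clock was 1.12-fold higher. Per2, Arntl and Nr1d1 lay at 0.973, 1.09 and 0.962 of their control levels. Without adjustment, 3 of the 6 genes had a p-value under 0.05, Per1 and Clock (higher) and Dbp (lower), against 13.9% of all genes tested (6.9% higher and 6.95% lower). The median log2 fold change was 0.04 over the 6 genes (3 higher, 3 lower) and -0.0052 over all genes tested, and the median of its absolute value was 0.15 and 0.11, respectively. The groups overlapped in all 6 genes, whereas 2.31% of all genes tested had no overlap (1.1% higher and 1.21% lower).

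**Figure D1:**
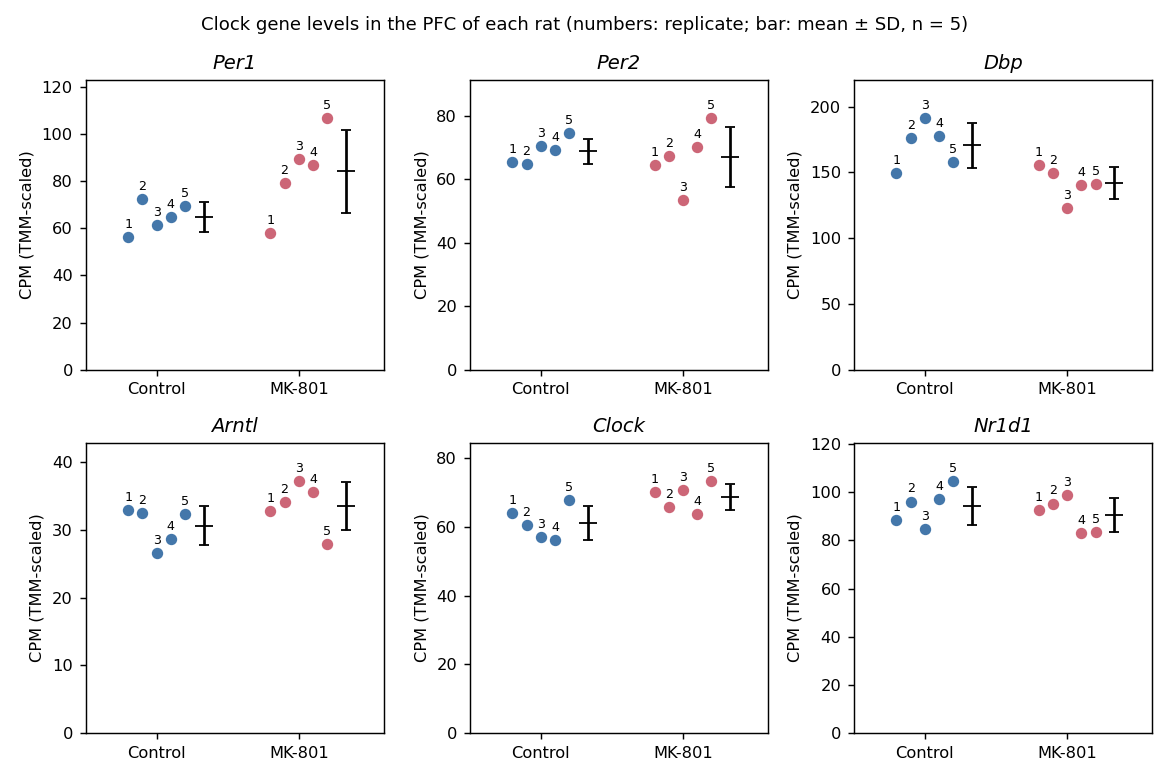
Level of each clock gene in each rat, in CPM (counts relative to the size of the library, after TMM scaling, on an axis from 0), with control rats in blue, MK-801 rats in red, the replicate number above each point and the mean ± SD (n = 5) as a black bar. Replicate 1 of the MK-801 group lies among the control rats in Per1 and Dbp, and the groups overlap in every panel.

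Among the repressor genes, Per1, a light- and activity-responsive repressor of CLOCK and ARNTL, had 56.4, 72.5, 61.5, 64.9 and 69.7 CPM in control replicates 1 to 5, and 58.2, 79.3, 89.6, 87.2 and 107 CPM in MK-801 replicates 1 to 5. MK-801 replicates 2 to 5 lay above every control rat, and MK-801 replicate 1 lay second lowest of all 10 rats. Control rats averaged 65.0 ± 6.41 CPM (SD, n = 5) and MK-801 rats 84.3 ± 17.8 CPM (SD, n = 5), for a log2 fold change of 0.37 (standard error 0.13, 95% interval 0.09 to 0.66; unadjusted p = 0.0149, adjusted p = 0.294 from edgeR). By p-value, Per1 ranked 818 of 16137 genes. The two-sided exact permutation test on log2 CPM gave p = 0.0556, where 0.00794 is the smallest that 5 rats against 5 allow. Without MK-801 replicate 1 the log2 fold change was 0.48 (adjusted p = 0.210 from edgeR), and without MK-801 replicate 5, the highest rat, it was 0.28 (adjusted p = 0.394).

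Per2, the paralog of Per1 in the same repressor complex, had group means closer together. Its levels were 65.5, 64.7, 70.7, 69.1 and 74.5 CPM in control replicates 1 to 5, and 64.5, 67.3, 53.5, 70.3 and 79.5 CPM in MK-801 replicates 1 to 5. MK-801 replicate 3 was the lowest and MK-801 replicate 5 the highest of the 10 rats, with the control rats in between. The log2 fold change was -0.04 (standard error 0.09, 95% interval -0.23 to 0.15; adjusted p = 0.864 from edgeR; two-sided exact permutation test, p = 0.675), and it turned to 0.031 without MK-801 replicate 3. The spread between rats, as SD over mean, was 14.1% in the MK-801 group and 5.78% in the control group for Per2, and 21.1% and 9.86% for Per1. In the other 4 genes it lay between 5.64% and 10.6% in both groups. The difference in spread was not tested.

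Dbp, the output gene whose product binds D-boxes, was the member with the smallest p-value. Its levels were 149, 176, 192, 177 and 158 CPM in control replicates 1 to 5, and 155, 149.7, 123, 140.3 and 141 CPM in MK-801 replicates 1 to 5. Control replicates 2 to 5 lay above every MK-801 rat, and control replicate 1 lay among the MK-801 rats. Control rats averaged 170.4 ± 16.9 CPM (SD, n = 5) and MK-801 rats 142 ± 12.4 CPM (SD, n = 5), for a log2 fold change of -0.26 (standard error 0.08, 95% interval -0.44 to -0.09; unadjusted p = 0.00594, rank 344 of 16137, adjusted p = 0.268 from edgeR). The two-sided exact permutation test gave p = 0.0238. Its adjusted p was 0.0979 in DESeq2 run on all genes with a count and 0.0947 in DESeq2 run on the genes kept by the filter. The latter was the smallest that any alternative gave for any of the 6 genes, and DESeq2 adjusts over fewer genes than it was run on. Leaving out each rat in turn gave log2 fold changes from -0.30 to -0.22, all of them with an unadjusted p-value under 0.05. With a covariate for the composition of the libraries, described further on, it was -0.15.

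Of the activator pair, Clock, the partner of ARNTL, had 64.0, 60.6, 56.9, 56.2 and 67.7 CPM in control replicates 1 to 5, and 70.0, 65.8, 70.7, 63.8 and 73.4 CPM in MK-801 replicates 1 to 5. MK-801 replicates 1, 3 and 5 lay above every control rat, and MK-801 replicates 2 and 4 lay within the control range. The log2 fold change was 0.17 (standard error 0.06, 95% interval 0.03 to 0.31; unadjusted p = 0.0186, adjusted p = 0.306 from edgeR; two-sided exact permutation test, p = 0.0397). It lay between 0.14 and 0.21 with each rat left out, and was 0.08 with the covariate for library composition.

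Arntl, the core activator that NR1D1 represses, had 33.01, 32.6, 26.6, 28.7 and 32.4 CPM in control replicates 1 to 5, and 32.8, 34.1, 37.3, 35.5 and 27.9 CPM in MK-801 replicates 1 to 5. MK-801 replicates 2 to 4 lay above every control rat, whereas MK-801 replicate 5 lay below all but control replicate 3. Its log2 fold change was 0.13 (standard error 0.09, 95% interval -0.06 to 0.32; adjusted p = 0.521 from edgeR; two-sided exact permutation test, p = 0.198). Without MK-801 replicate 5 it was 0.19, with an unadjusted p of 0.0294 and an adjusted p of 0.369 from edgeR. It was 0.08 without control replicate 3 (unadjusted p = 0.357) and 0.09 without MK-801 replicate 3 (unadjusted p = 0.343).

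Nr1d1, the repressor of Arntl, had 88.4, 96.2, 84.9, 97.1 and 105 CPM in control replicates 1 to 5, and 92.6, 95.3, 98.8, 83.2 and 83.6 CPM in MK-801 replicates 1 to 5. Both groups covered nearly the same range. The log2 fold change was -0.06 (standard error 0.07, 95% interval -0.21 to 0.10; adjusted p = 0.751 from edgeR; two-sided exact permutation test, p = 0.468), so that a difference of either sign within this interval remains possible. Nr1d1 lies antisense to its neighbour Thra at their 3′ ends, and the strand setting of the counting is not given in the sources used here, so reads from the shared stretch cannot be assigned to either gene with certainty.

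**Figure D2:**
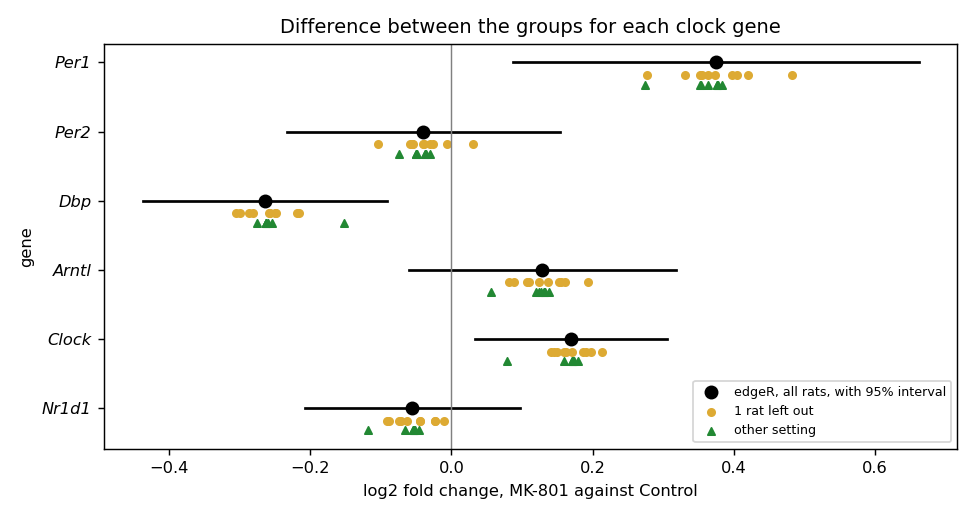
Log2 fold change of each clock gene (MK-801 against control, horizontal axis), with edgeR's estimate and 95% interval in black, the fits that leave out 1 rat as yellow circles and the other settings as green triangles. The intervals of Per1 and Clock lie above 0, that of Dbp lies below 0, and those of the others include 0, before any adjustment for the number of genes.

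The balance of the activator against its targets was taken in each rat as the log2 CPM of Arntl minus the mean log2 CPM of Per1, Per2 and Dbp. Its absolute value also depends on the length of the transcripts, so it was compared between rats alone, and as a description with no test. It was -1.31, -1.52, -1.82, -1.69 and -1.53 in control replicates 1 to 5, and -1.35, -1.44, -1.17, -1.42 and -1.93 in MK-801 replicates 1 to 5. MK-801 replicate 3 had the highest and MK-801 replicate 5 the lowest balance of the 10 rats, and the other MK-801 rats lay within the range of the control group. The means were -1.57 ± 0.19 (SD, n = 5) and -1.46 ± 0.28 (SD, n = 5), a difference of 0.11 that was smaller than the SD of either group. This difference was 0.18 without control replicate 1, 0.05 without control replicate 3, 0.04 when MK-801 replicate 3 was left out and 0.23 when it was MK-801 replicate 5.

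The direction of the balance depended on the partner of Arntl. Against Dbp alone, the balance was -2.17, -2.43, -2.85, -2.62 and -2.28 in control replicates 1 to 5, and -2.24, -2.13, -1.72, -1.98 and -2.34 in MK-801 replicates 1 to 5, so that MK-801 replicates 2 to 4 lay above every control rat. The difference of the means was 0.39, with SDs of 0.27 in the control group and 0.24 in the MK-801 group. Against Per2 alone, the difference was 0.18, with MK-801 replicates 1 to 4 above every control rat (between -0.98 and -0.52, with a control range of -1.41 to -0.99) and MK-801 replicate 5 below all of them at -1.51. The margin between the groups was narrow, since MK-801 replicate 4 lay at -0.982 and control replicate 1 at -0.987. Against Per1 alone the direction was opposite, with a difference of -0.22 and with MK-801 replicates 2 to 5 (between -1.94 and -1.21) below the lowest control rat at -1.208. Single rats set the size of these differences. Against Per1 alone, the difference was -0.07 without MK-801 replicate 5, -0.15 without control replicate 1 and -0.34 without MK-801 replicate 1. Against Per2 alone, it was 0.31 without MK-801 replicate 5, 0.06 without MK-801 replicate 3 and 0.12 without control replicate 3. Against the mean of both Per genes, it was -0.02, and it turned to 0.12 without MK-801 replicate 5 and to 0.038 without control replicate 1, whereas against Dbp alone it stayed between 0.30 and 0.47 with each rat left out.

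**Figure D3:**
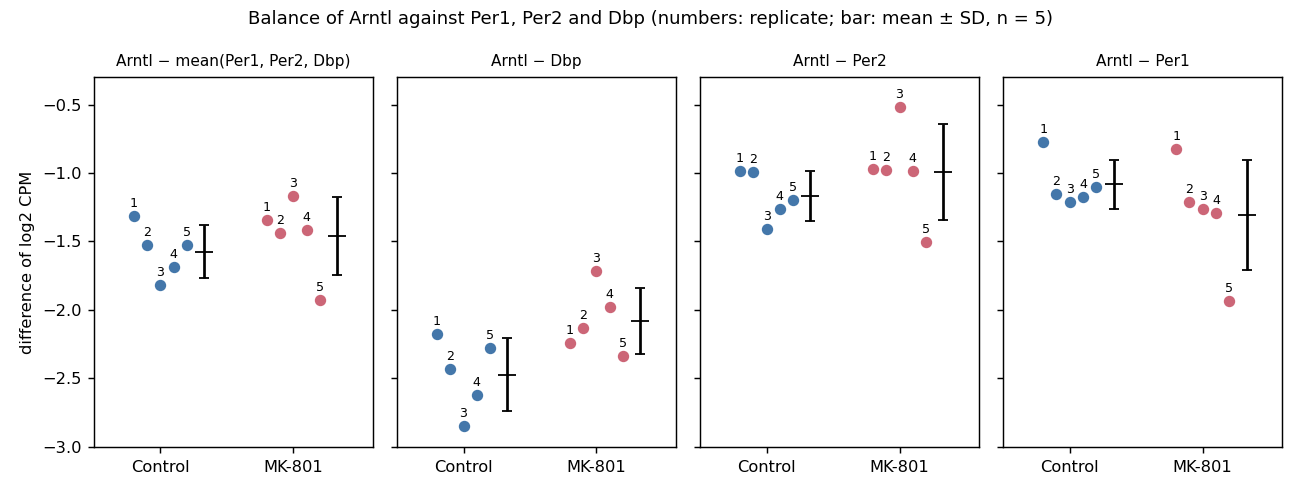
Log2 CPM of Arntl minus that of its targets in each rat (vertical axis, log2 units), for the mean of Per1, Per2 and Dbp and for each alone, with control rats in blue, MK-801 rats in red, replicate numbers above the points and the mean ± SD (n = 5) as a bar. MK-801 replicate 5 is the lowest rat in every panel but that of Dbp, and the group means differ by 0.39 for Dbp and by -0.22 for Per1.

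Across the 10 rats, the relation between members was examined in all 15 pairs of genes, whose values share the library and its scaling. The largest was between Dbp and Clock (Pearson's r = -0.79, permutation p = 0.00655, adjusted over 15 pairs p = 0.0982; Spearman's rho = -0.67, permutation p = 0.0395, adjusted p = 0.273). Without control replicate 3 and MK-801 replicate 3, the rats farthest from the median of Dbp, r was -0.71, and for deviations from the group means it was -0.58. Dbp and Arntl, which run opposite in the clock, had r = -0.69 (permutation p = 0.0272, adjusted p = 0.191; Spearman's rho = -0.72, permutation p = 0.0235, adjusted p = 0.273). Their r was -0.61 for deviations from the group means, with -0.82 in control rats and -0.41 in MK-801 rats. It was -0.26 without control replicate 3 and MK-801 replicate 3. Leaving out these rats also narrows the range of Dbp, so how far the relation rests on them cannot be told. Per2 and Arntl had r = -0.65 (permutation p = 0.0381, adjusted p = 0.191; Spearman's rho = -0.64, permutation p = 0.0547, adjusted p = 0.273), with r = -0.65 for deviations from the group means and -0.24 without MK-801 replicates 3 and 5. Per1 and Per2 had r = 0.13 (permutation p = 0.735, adjusted p = 0.919; Spearman's rho = 0.20, permutation p = 0.583, adjusted p = 0.798), and r was -0.42 without control replicate 1 and MK-801 replicate 5. No pair had an adjusted p-value under 0.05.

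Clock and Dbp also varied with the composition of the libraries, and how many of all genes tested had as strong a relation was not computed. The share of counts in the 10 most abundant genes had r = -0.86 with Clock (permutation p = 0.00059, adjusted over 6 genes p = 0.00354; Spearman's rho = -0.84, permutation p = 0.00404, adjusted p = 0.0242) and r = 0.78 with Dbp (permutation p = 0.00689, adjusted p = 0.0207; Spearman's rho = 0.72, permutation p = 0.024, adjusted p = 0.072). Without the 2 rats farthest from the median share, r was -0.79 for Clock and 0.49 for Dbp, and for deviations from the group means it was -0.78 and 0.65. For Per1, r was -0.55 (permutation p = 0.0966, adjusted p = 0.145) and rho was -0.67 (permutation p = 0.0401, adjusted p = 0.0802). For Arntl, r was -0.55 (permutation p = 0.0967, adjusted p = 0.145) and rho was -0.30 (permutation p = 0.410, adjusted p = 0.593). Without the 2 rats farthest from the median share, r for Arntl was 0.32. For Per2 and Nr1d1, r was -0.04 and -0.22. The part of the share in the relation between Dbp and Arntl was not tested. With this share as a covariate in edgeR, the log2 fold changes kept their direction at 0.27 for Per1 (unadjusted p = 0.118), -0.15 for Dbp (unadjusted p = 0.0784) and 0.08 for Clock (unadjusted p = 0.208), so that 0 of the 6 genes stayed at an unadjusted p-value under 0.05. Over all genes tested, the share at this level was 4.82% with the covariate, against 13.9% without it. The covariate also moved the log2 fold changes of Arntl to 0.06, of Per2 to -0.07 and of Nr1d1 to -0.12, with unadjusted p-values of 0.581, 0.506 and 0.158. The share itself averaged 8.27% ± 1.81 (SD, n = 5) in control rats and 6.66% ± 0.471 (SD, n = 5) in MK-801 rats. It thus differed with the group, so the fit with this covariate cannot fully separate the share from the treatment.

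**Figure D4:**
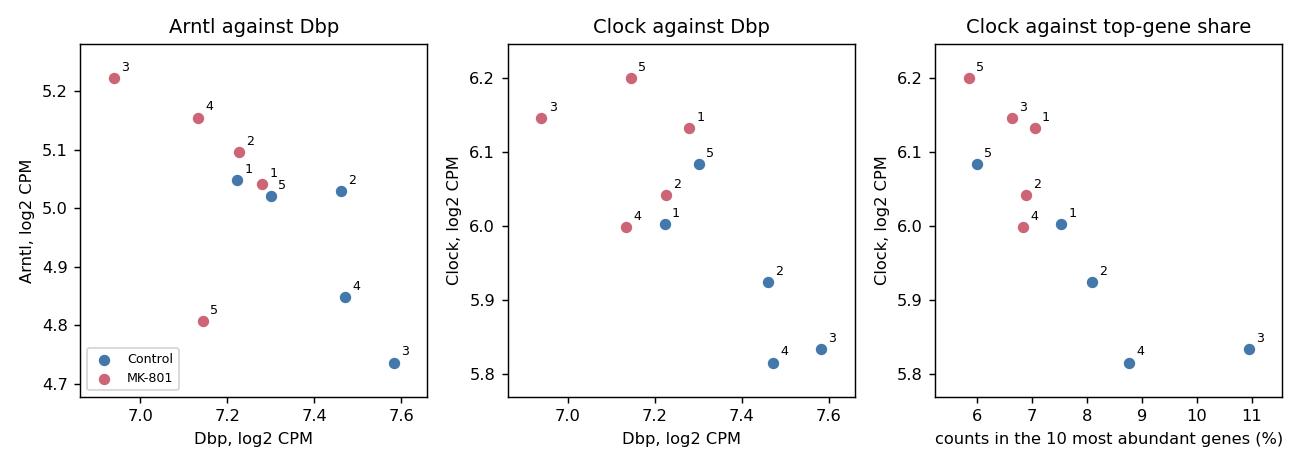
Arntl and Clock against Dbp (both axes log2 CPM), and Clock against the share of counts in the 10 most abundant genes (horizontal axis, %), 1 point per rat with its replicate number, control in blue and MK-801 in red. Clock is lower in the rats with a higher share (r = -0.86), and MK-801 replicate 5 lies apart from the other rats in the panel of Arntl and Dbp.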

How the data were processed

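PFC RNA of 5 control and 5 MK-801 rats was sequenced. The authors used HISAT2, version 2.2.1, to align the reads to mRatBN7.2, then SAMtools, version 1.15.1, per the submitters' processing notes, counted them on Ensembl release 105 genes with featureCounts (Subread version 2.0.1), and deposited whole-number counts per gene and rat without normalization or filter.

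From these counts, genes were kept with filterByExpr (minimum count 10, minimum total 15), scaled by TMM and tested in edgeR version 4.0.16 (R version 4.3.3) with its two-sided quasi-likelihood test, adjusted over all 16137 genes. Intervals use the standard error that the F statistic implies. Log2 CPM used a prior count of 2. Exact permutation tests covered all 252 splits of the rats, and correlations used 100000 resamples. The fits were also run on simulated data, in which the changes set were larger than those of the clock genes, so differences of this size were not simulated. Alternatives were DESeq2 version 1.42.0, RLE and upper quartile scaling, no filter, limma-voom (limma version 3.58.1), the replicate number as a block, a covariate for the share of counts in the top 10 genes, and each rat left out. For the balance, they were the scaling, its definition, a prior count of 0.125 and each rat left out. Balances of Arntl against Per1 alone and Per2 alone, and DESeq2 on the genes kept by the filter, were added after the data were examined.

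The members, and the share used as a covariate, were chosen with earlier results of these data known. The labels do not say that rats came from separate litters or cages, so p-values measure the spread between these 10 rats. Per the methods, the rats of the study were caged singly, which is not repeated for the sequenced rats, and litters are not given. All 45 pairs of libraries differed by more than counting noise (chi-square over degrees of freedom of at least 8.76). The 6 genes had 733 to 5439 counts per rat, and the part of counting error in the spread between rats was not computed. The rule for names was the 6 members, and the genes most like them across rats, of which 2 identifiers at most were to be printed. A RefSeq table of GRCr8 holds no Ensembl identifiers, so further clock genes (such as Per3 and the Cry genes) and markers of cell types are not analysed here. Gene positions in mRatBN7.2 were not used here, and the sequences are those of RefSeq in GRCr8.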

Additional observations from a re-analysis of the deposited data

How the results depend on the processing

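Over 18 alternative fits per gene, none of the 6 clock genes reached an adjusted p-value under 0.05. Per1, Dbp, Arntl, Clock and Nr1d1 kept their direction in all of them, and Per2 turned from -0.04 to 0.031 without MK-801 replicate 3. The adjusted p ranged from 0.146 to 0.916 for Per1, 0.0947 to 0.916 for Dbp and 0.116 to 0.916 for Clock. Leaving out each rat gave log2 fold changes from 0.28 to 0.48 for Per1, -0.10 to 0.031 for Per2, 0.08 to 0.19 for Arntl and -0.09 to -0.01 for Nr1d1, and from 3 to 4 clock genes at an unadjusted p-value under 0.05.

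With a covariate for the share of counts in the top 10 genes, the 3 clock genes at an unadjusted p-value under 0.05 became 0, and all genes at that level went from 2235 to 777. The cause was not tested. The 0 genes of the whole table at an adjusted p-value under 0.05 became 106 with DESeq2 on 23914 genes, 117 with DESeq2 on the 16137 genes kept by the filter (a setting chosen after seeing the data) and from 0 to 12 with each rat left out (12 without MK-801 replicate 1), and the 2235 at an unadjusted one became 1458 to 3280 (1458 without control replicate 3, 1474 without control replicate 4). The mean difference in the balance of Arntl, 0.11, was 0.39 against Dbp alone, -0.02 against both Per genes, -0.22 against Per1 alone and 0.04 to 0.23 with each rat left out. Scaling and the prior count moved it by less than the spread between rats.

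The labels do not say that replicate numbers pair the rats. Rats sharing a number had correlated residuals over 0.1 in 3 of 5 cases (0.18, -0.05, 0.05, 0.11 and 0.32 for numbers 1 to 5), rats with other numbers reached at most 0.13, and 5 of the 10 rats correlated best with their own number. Since this was not so in all 5 pairs, no pairing was assumed, but a hint of it remains in the residuals of numbers 1 and 5. MK-801 rats lay above the control rat of the same number in 5 of 5 pairs for Per1 and for Clock. They did so in 3 pairs for Per2 and for Arntl, 2 for Nr1d1 and 1 for Dbp. Such counts depend on the difference between the groups as well as on any pairing, so they cannot show whether numbers pair the rats. With the replicate block, the log2 fold changes were 0.35 for Per1, -0.05 for Per2, -0.26 for Dbp, 0.13 for Arntl, 0.17 for Clock and -0.05 for Nr1d1, with no adjusted p-value under 0.05. The unadjusted p from edgeR was lower with the block for Per1 (0.00321, against 0.0149 without it) and Clock (0.00607, against 0.0186). It was higher for Dbp (0.0168, against 0.00594). The adjusted p with the block was 0.146 for Per1, 0.155 for Clock and 0.200 for Dbp. The block left 3 clock genes at an unadjusted p-value under 0.05, and 2862 genes of the whole table.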

Other observations

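Further pairs of members were set against each other in each rat after their values had been seen, as a description with no test. The log2 CPM of Clock minus that of Dbp lay between -1.75 and -1.22 in the control group and between -1.19 and -0.79 in the MK-801 group. The groups did not overlap, by a margin of 0.03 between control replicate 5 and MK-801 replicate 2. Clock was higher and Dbp lower in the MK-801 group, so that setting them against each other favours such a separation. How often other pairs of genes separate in this way was not computed. Clock and Dbp are also the members that varied in opposite directions with the share of counts in the top 10 genes, and the part of that share in this difference was not tested. Per1 minus Dbp was -1.39 ± 0.18 (SD, n = 5) for control rats and -0.77 ± 0.41 (SD, n = 5) for MK-801 rats, with MK-801 replicate 1, at -1.42, within the control range of -1.64 to -1.18. Per1 minus Per2 was -0.09 ± 0.15 (SD, n = 5) and 0.31 ± 0.32 (SD, n = 5), with MK-801 replicates 2 to 5 above every control rat and MK-801 replicate 1, at -0.15, among them. Clock minus Arntl was 1.00 ± 0.08 (SD, n = 5) and 1.04 ± 0.22 (SD, n = 5), with 1 MK-801 rat above and 1 below all control rats.

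The clock genes were not each other's nearest neighbours across the rats. Among the other 16136 genes ranked by Pearson's r of log2 CPM over the 10 rats, as a description, the highest place that any member held for another was 1105 (Clock, ranked against Per1). From the opposite end, Dbp was the 316th most negatively related gene to Arntl, and Arntl the 427th to Per2. The genes most like a member were ENSRNOG00000010587 for Clock (r = 0.98) and ENSRNOG00000033741 for Nr1d1 (r = 0.97), which the files do not pair with names. A total of 235 genes had r above 0.9 with Clock, against 31 with Dbp, 21 with Arntl, 5 with Per1, 4 with Per2 and 3 with Nr1d1.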
